A study of Drosophila melanogaster with 4 samples.

Results

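Messenger RNA of 7 muscle and cytoskeleton genes was followed in heads of male Drosophila melanogaster fed the drug pilocarpine. The genes were taken by name: the muscle actin genes Act79B (Entrez 40444, CG7478), Act87E (48632, CG18290) and Act88F (41885, CG5178), the myosin light chain gene Mlc1 (43323, CG5596), the actin-binding protein gene cib (31359, CG4944), the tubulin gene betaTub60D (37888, CG3401) and the kinesin gene Klp59C (37671, CG3219). They are 7 of the 1449 genes with a value and of the 1444 measured on at least 3 of 4 arrays. Unmated Oregon-R wild-type males, 3 to 4 days old at the start, ate food with 1.5 mg/ml pilocarpine for 7 days, and the untreated flies of the same strain, sex and age ate normal food over the same time, in vials of 30 flies. Pilocarpine activates muscarinic acetylcholine receptors and serves to provoke seizures in rodents. Each of the 4 arrays, 2-colour cDNA slides, carried treated and untreated RNA of one parallel set of pooled heads, a biological replicate per the labels, with the treated RNA in Cy5 on replicates 1 and 2 and in Cy3 on replicates 3 and 4.

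Muscle contracts when myosin heads, each with a pair of light chains on its neck, pull on thin filaments of actin. The fly has separate actin genes for different muscles and for the cytoplasm, and Act88F is the actin of the indirect flight muscle. Outside muscle, actin assembly is set by proteins that bind its monomers, and microtubules are built from alpha- and beta-tubulin and are shortened or walked along by kinesins. The head holds muscles of the proboscis, antennae and pharynx beside brain, eyes and fat body. In such bulk RNA fewer cells of a type and less RNA per cell cannot be told apart.

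Each value is a log2 ratio, with pilocarpine over normal food, from which the median over genes of that array was subtracted. Those medians were -0.14, -0.53, -0.26 and -0.42 for replicates 1 to 4. The labels do not say which channel is the numerator. The ratios were read as Cy5 over Cy3, the usual output of the scanner software, and replicates 3 and 4 were turned in sign. This direction is likely but not settled, so each gene is also given in the opposite direction, with no array turned. The signs on replicates 1 and 2 are the same in both. If the untreated RNA was the numerator throughout, all signs of the opposite direction would change and its sizes would stay. If the ratios were Cy3 over Cy5, the same would hold for the likely direction. Arrays measured 969 to 1444 genes. Over genes, which are not independent replicates, replicates 3 and 4 correlated at r = 0.40 and replicates 1 and 2, which share the other dye orientation, at r = -0.054. Across the orientations, in the likely direction, replicate 2 correlated with replicates 3 and 4 at 0.19 and 0.40, and replicate 1 at -0.12 and -0.24. Replicate 1 thus stood apart from the other 3 arrays in that direction. In the opposite direction these 4 values change sign, and replicate 2 is the array below 0 with all others. Of the labelled tissue's markers, 3 of 11 photoreceptor genes, 2 of 6 glial genes and 0 of 8 neuronal genes were measured on at least 3 arrays.

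None of the 7 genes passed the test over all genes (limma, threshold of 0.05 on the adjusted p) with the arrays centred, in either direction of replicates 3 and 4. In the likely direction 2 of 1444 genes passed (0.139%), and in the opposite direction 0 did (0%), with 122 at an unadjusted p under 0.05 (8.45%). Without centring in the opposite direction, where array medians below 0 enter each mean, 237 genes passed as lower (16.4%), and Act88F was the 1 of the 7 among them. The gene farthest from the array medians was Klp59C, with a mean log2 ratio of 0.55, and the farthest below them was Mlc1, at -0.38. Between these lay cib at 0.11, Act79B at 0.10, Act88F at -0.093, betaTub60D at -0.14 and Act87E at -0.21. Neighbours in the order from cib to Act87E lay closer together than 1 SD of either gene over arrays. Unadjusted p-values were under 0.05 for Klp59C and Mlc1, as for 103 genes in all (7.13%), and in the opposite direction for none of the 7.

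**Figure D1:**
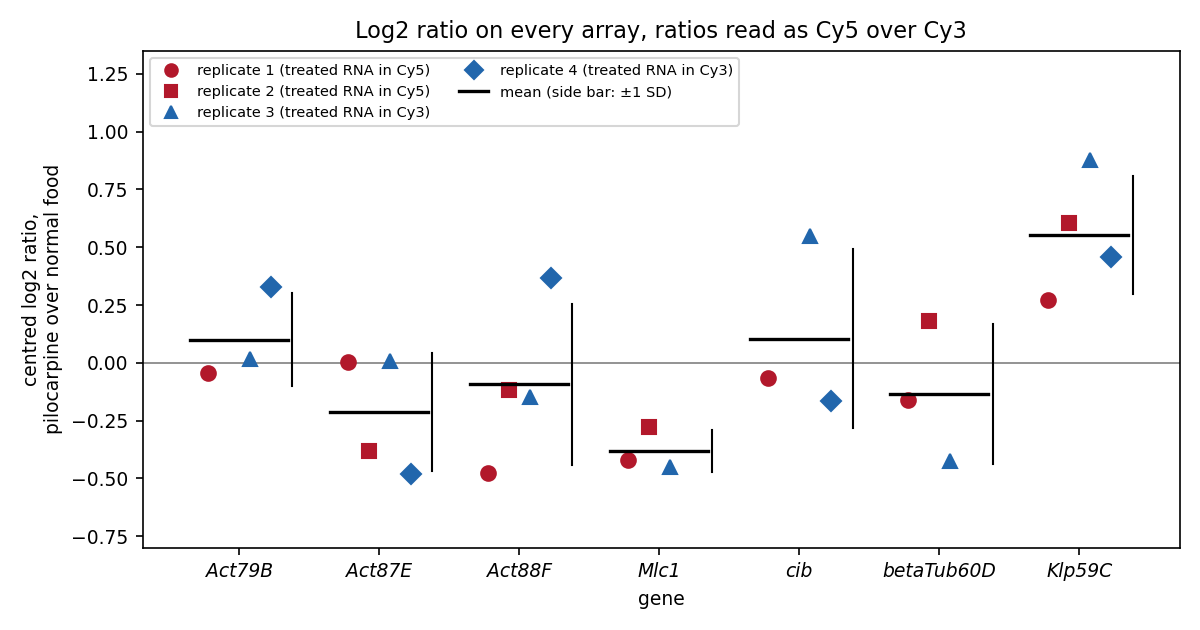
Centred log2 ratio of pilocarpine over normal food (vertical axis) for the 7 genes (horizontal axis), 1 point per array, coloured by the dye of the treated RNA; horizontal bars are means and side bars 1 SD. Klp59C lies above 0 on 4 of 4 arrays and Mlc1 below 0 on 3 of 3, while the other 5 genes have arrays on both sides of 0.

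None of the 3 muscle actin genes passed, and the mean difference between any 2 of them was smaller than its SD over arrays. Act79B, an actin of tubular muscle, was at -0.045, 0.015 and 0.33 on replicates 1, 3 and 4 and had no value on replicate 2. It thus lay close to the array median on 2 arrays and above it on replicate 4, where 79.9% of genes were lower. Its mean was 0.10 ± 0.20 (SD, n = 3; limma adjusted p = 0.968), with a 95% interval from -0.29 to 0.49.

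Act87E, an actin of body-wall and other adult muscle, was at 0.0029, -0.38, 0.0093 and -0.48 on replicates 1 to 4. Replicates 1 and 3 sat on the array median, and replicates 2 and 4 lay below it, so each dye orientation held 1 array at the median and 1 below it. Its mean was -0.21 ± 0.25 (SD, n = 4; limma adjusted p = 0.916), with a 95% interval from -0.55 to 0.13. A further probe listed for Act87E gave no value on any array.

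Act88F, the flight muscle actin, was at -0.48, -0.12, -0.15 and 0.37. Replicate 1 was among its array's lowest values, with 4.54% of genes lower, and replicate 4 was the only one above 0, with 82.7% lower. The mean was -0.093 ± 0.35 (SD, n = 4; limma adjusted p = 0.968), and its 95% interval ran from -0.46 to 0.27. On replicate 4 Act79B and Act88F lay 0.81 and 0.85 above Act87E on the log2 scale, whereas on replicate 1 Act88F lay 0.48 below Act87E. The coding sequences of actin genes are very similar, and the share of each spot's signal that came from another actin transcript was not tested. Of 5 marker genes of indirect flight muscle, Act88F was the 1 with a value.

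In the opposite direction the mean of Act79B was -0.13, with all 3 arrays below 0, that of Act87E was 0.023 and that of Act88F was -0.20 (limma adjusted p = 0.868, 0.978 and 0.704). Of the 480 genes measured without replicate 2, as Act79B was, 16.7% were below 0 on all 3 arrays in that direction. Without centring in that direction Act88F was at -0.54 and passed (limma adjusted p = 0.0397). In all, 237 of 1444 genes passed as lower in that setting (16.4%). With the dye as a second term in the likely direction, the dye coefficient was 0.023 for Act87E and -0.20 for Act88F (limma adjusted p = 0.977 and 0.726). With 2 arrays in each orientation it equals the mean of the opposite direction by design, so it is no separate check of the dye.

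Mlc1, which encodes the essential light chain of muscle myosin, was at -0.42, -0.28 and -0.45 on replicates 1, 2 and 3 and had no value on replicate 4. All 3 arrays lay below 0, as did 6 of 6 single spots, between -0.48 and -0.18. Paired spots of an array share its RNA and are not independent values. The mean was -0.38 ± 0.091 (SD, n = 3), or a ratio of 0.767, with a 95% interval from -0.76 to -0.0042. The unadjusted limma p was 0.0479 and the adjusted p was 0.684. Of the 199 genes measured without replicate 4, 9.55% were below 0 on all 3 arrays. In size the mean of Mlc1 ranked at 125 of 1444 genes. Its SD over arrays was small, with 5.26% of genes smaller. In the opposite direction replicate 3 stood at 0.45, the mean was -0.083 ± 0.47 and the limma adjusted p was 0.936. Without centring, in the likely direction, the mean of Mlc1 was -0.52 and its SD 0.31. The small SD thus rested on the centring as well as on the direction.

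Other myosin light chains lay on the same side without passing. Mlc2, the regulatory light chain of muscle myosin, was below 0 on 4 of 4 arrays, at -0.47, -0.072, -0.37 and -0.075, with a mean of -0.25 ± 0.20 (SD, n = 4; limma adjusted p = 0.842). Of 748 genes on all 4 arrays, 6.15% were below 0 on all. Mlc-c, the essential light chain of non-muscle myosin, was at -0.39, 0.075 and -0.25 on replicates 1 to 3, with a mean of -0.19 ± 0.24 (SD, n = 3; limma adjusted p = 0.927). With no array turned Mlc2 and Mlc-c were at -0.023 and -0.022.

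Cib, or ciboulot, carries beta-thymosin repeats, binds actin monomers and acts in brain metamorphosis. Its values were -0.065, 0.55 and -0.17 on replicates 1, 3 and 4, with none on replicate 2. Replicate 3 alone was above 0, with 88.5% of genes lower on that array. The mean of cib was 0.11 ± 0.39 (SD, n = 3; limma adjusted p = 0.968) and -0.12 without replicate 3. In the opposite direction it was -0.15 (limma adjusted p = 0.871).

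BetaTub60D, the beta-3 tubulin of developing muscle and of some sensory organs, was at -0.16, 0.18 and -0.43 on replicates 1, 2 and 3 and had no value on replicate 4. Replicate 2 lay above 0 and the others below it. The mean of betaTub60D was -0.14 ± 0.30 (SD, n = 3; limma adjusted p = 0.950), and it was 0.0099 without replicate 3 and 0.15 in the opposite direction (limma adjusted p = 0.855).

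Klp59C encodes a kinesin-13, a motor that removes tubulin from microtubule ends and moves chromosomes in mitosis. It was at 0.27, 0.61, 0.88 and 0.46 on replicates 1 to 4, above 0 on 4 of 4 arrays. Of the 748 genes on all 4 arrays 59 were above 0 on all (7.89%). All 8 single spots were above 0 as well, between 0.21 and 0.96. Paired spots of an array share its RNA and are not independent values. The shares of genes with lower values were 85.9%, 92.3%, 96.2% and 86.7% on the 4 arrays. The mean of Klp59C was 0.55 ± 0.26 (SD, n = 4), or a ratio of 1.47, with a 95% interval from 0.22 to 0.89. Its unadjusted limma p was 0.00397 and the adjusted p was 0.334. Among 1444 genes Klp59C ranked at 16 by p and at 39 by size of the mean. On every array where both had a value, Klp59C was above each of the other 6 genes, by 0.091 on replicate 4 against Act88F at the least.

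The height of Klp59C depends on the direction of replicates 3 and 4. Its mean was 0.44 over replicates 1 and 2, where the sign is the same in both directions, and 0.67 over replicates 3 and 4 once turned. Of 1444 genes 14, Klp59C included, were at or above both of these means. Where a gene lacked 1 array of a pair, the other array alone was used. With no array turned, replicates 3 and 4 were at -0.88 and -0.46, the mean was -0.11 ± 0.68 (SD, n = 4) and the limma adjusted p was 0.931. With the dye as a second term the treatment coefficient of Klp59C was 0.55 ± 0.15 (SE; limma adjusted p = 0.110 over 748 genes) and the dye coefficient -0.11 (limma adjusted p = 0.862). With 2 arrays in each orientation these coefficients equal the means of the likely and the opposite direction by design. They are no separate check of either. An exact sign-change test of 4 arrays cannot give a two-sided p below 0.125, nor one of 3 arrays below 0.25.

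**Figure D2:**
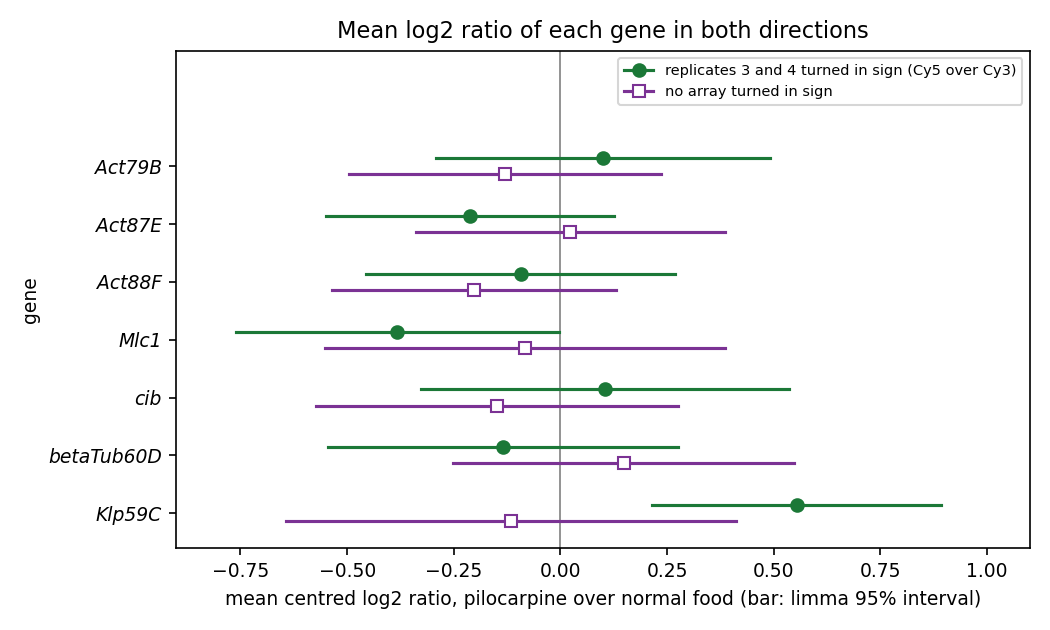
Mean centred log2 ratio of pilocarpine over normal food (horizontal axis) for each gene (rows), with replicates 3 and 4 turned in sign (filled circles) and with no array turned (open squares); bars are limma 95% intervals. Klp59C, at 0.55, and Mlc1, at -0.38, have intervals off 0 in the likely direction, and no interval excludes 0 in the opposite one.

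**Figure D3:**
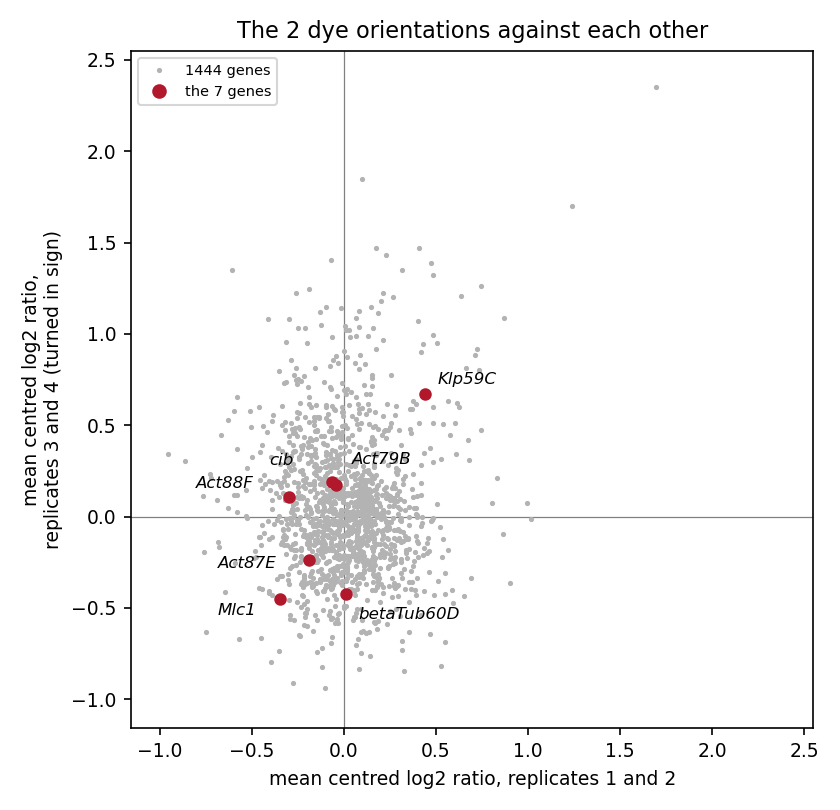
Mean centred log2 ratio over replicates 1 and 2 (horizontal axis) against that over replicates 3 and 4 turned in sign (vertical axis), for 1444 genes (grey) and the 7 genes (red). Where a gene lacks 1 array of a pair, the other array alone is used. Klp59C lies at 0.44 and 0.67, and Mlc1 at -0.35 and -0.45, the latter from replicate 3 alone. Reading the arrays in the opposite direction mirrors the plot about its horizontal line at 0.

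Technical spread was set beside these ratios. The 2 adjacent spots of a probe differed by 0.11 to 0.17 on the log2 scale in the median over named probes of an array. For the 7 genes that difference ran from 0.010, for Act79B on replicate 1, to 0.34 and 0.35, for Act87E and Klp59C on replicate 4. On replicate 4 the spots of Act87E lay farther apart than those of most probes, 88.5% of which had an equal or smaller difference. For Klp59C on that array the share was 88.6%.

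The other measured muscle and cytoskeleton genes held none that passed. Of 146 listed genes of the sarcomere, actin regulation, microtubules, motors and muscle calcium handling, 22 were measured on at least 3 arrays, 15 of them beyond the 7. The median log2 ratio of the 22, with the 7 included, was -0.046, against 0.0078 over all 1444 genes. In the opposite direction it was -0.065 against 0.0022. In these 22 genes 0 passed in either direction (limma). An unadjusted limma p under 0.05 was found for Klp59C, Mlc1 and Klp67A in the likely direction and for 0 in the opposite one. Of these, only Klp67A is beyond the 7. Over all 1444 genes 103 (7.13%) had such a p in the likely direction and 122 (8.45%) in the opposite one. None of the 6 listed genes of muscle calcium and phosphagen had a value.

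Among 14 thin filament genes 5 were measured. Besides the 3 actins these were TpnC73F, a troponin C that binds calcium, at -0.10 ± 0.42 (SD, n = 4), and Tm2, a tropomyosin, at -0.034 ± 0.32 (SD, n = 3). The median of all 5 was -0.093, and that of TpnC73F and Tm2 alone was -0.068. TpnC73F was at 0.48, -0.34, -0.064 and -0.48 on replicates 1 to 4, so it lay above 0 on replicate 1 only. Of 18 thick filament, titin and Z-disc genes 3 were measured, with a median of -0.25, or -0.15 without Mlc1. Beside Mlc1 and Mlc2 this was the Z-disc gene Zasp66 at -0.059 ± 0.22 (SD, n = 4).

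Of 53 genes for actin and its regulators outside the sarcomere 7 were measured, with a median of -0.025 and a range from -0.23 to 0.15. The villin-like gene qua was lowest, at -0.23 ± 0.53 (SD, n = 4), followed by Mlc-c and by sn, the bundling protein fascin, at -0.028. At the upper end stood twf, or twinfilin, which binds actin monomers as cib does, at 0.15 ± 0.58 (SD, n = 3), then cib, and the bundling protein gene Fim at -0.0073. For twf the value of replicate 2 was 0.80, and those of replicates 1 and 3 were -0.31 and -0.030.

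Of 25 tubulin and microtubule genes 4 were measured, with a median of 0.036, or 0.15 without betaTub60D. Map205, a microtubule-associated protein, was above 0 on 4 of 4 arrays, at 0.46, 0.080, 0.083 and 0.049, with a mean of 0.17 ± 0.20 (SD, n = 4; limma adjusted p = 0.917). Its mean was 0.10 in the opposite direction. The plus-end protein genes chb and msps were at 0.15 and -0.078 in the likely direction, and at -0.33 and -0.26 in the opposite one.

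Of 30 kinesin and dynein genes 3 were measured. Klp67A, a kinesin-8 that also acts on microtubule ends in mitosis, had the lowest mean of the 22 genes, at -0.47 ± 0.61 (SD, n = 4). It was at 0.28 on replicate 1, beside 0.27 for Klp59C, and at -0.52, -1.21 and -0.44 on replicates 2 to 4, below 0 where Klp59C was above it. Its unadjusted limma p was 0.0436 and the adjusted p 0.684, and its mean in the opposite direction was 0.35 (limma adjusted p = 0.704). The dynein regulator gene nudE was at 0.15 ± 0.34 (SD, n = 3).

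**Figure D4:**
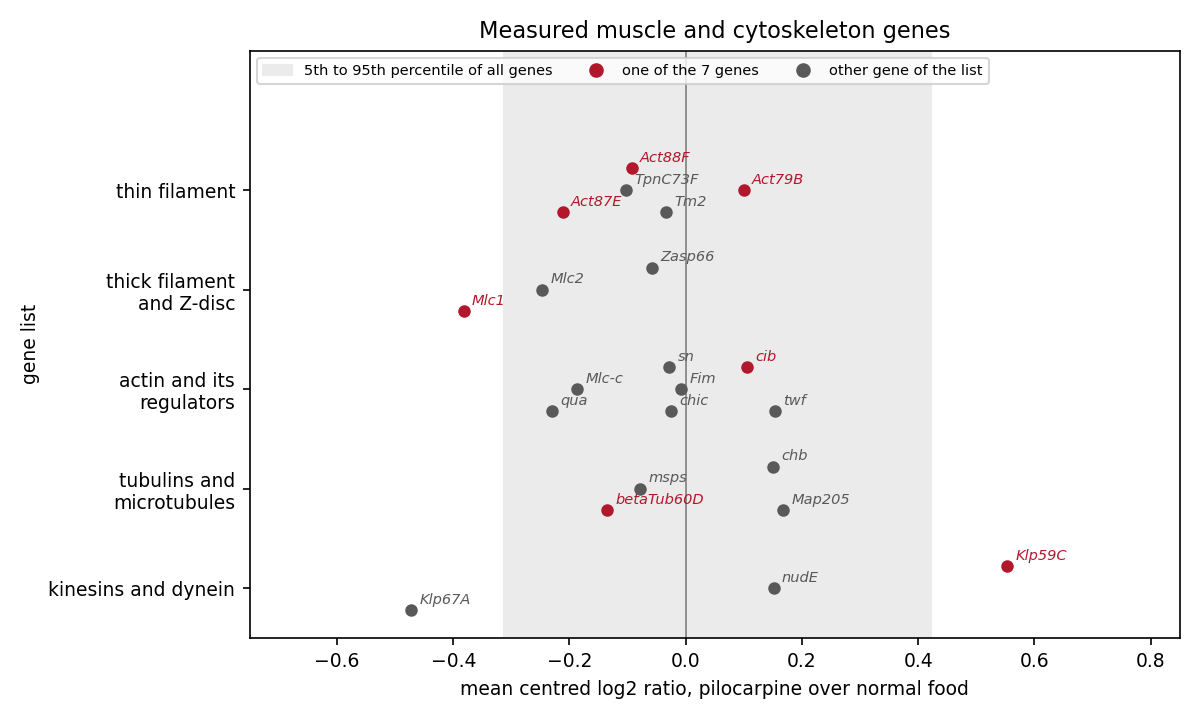
Mean centred log2 ratio of pilocarpine over normal food (horizontal axis) for the 22 measured muscle and cytoskeleton genes, by list (rows; points are spread vertically for legibility), with the 7 genes in red; the band spans the 5th to 95th percentile of 1444 genes, -0.31 to 0.42. Mlc1 and Klp67A lie below the band and Klp59C above it.

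Markers of other cells gave the following values beside these genes. Of 10 head fat body markers 8 were measured, with a median of 0.15, and 2 lay below 0. With no array turned their median was -0.26, all 8 lay below 0, between -0.56 and -0.0026, and none passed. In the likely direction apolpp was the 1 that passed, at 1.47 ± 0.68 (SD, n = 4; limma adjusted p = 0.0437). Without the turn, apolpp stood at -0.23 (limma adjusted p = 0.936). The 2 glial markers lay at -0.051 and 0.11, the 3 photoreceptor markers between -0.041 and 0.26, the haemocyte marker Col4a1 at 0.15 and the testis marker ocn at 0.54 (limma adjusted p = 0.635). With no array turned the glial markers were at -0.029 and 0.091, the photoreceptor markers between 0.11 and 0.20, Col4a1 at -0.33 and ocn at 0.61. The part of these tissues in the ratios of the 7 genes was not tested.

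Genes whose ratios over arrays were most like those of each of the 7 were found by the root mean square difference, which is the same in both directions. Over 4 arrays CG16898 was nearest to Klp59C, at a difference of 0.11 against a median of 0.67 over 745 genes, followed by svp at 0.15. CG16898 was at 0.38, 0.59, 0.69 and 0.52 on replicates 1 to 4. Over 3 arrays the neuropeptide gene AstC was nearest to Mlc1, at 0.046 against a median of 0.48 over 942 genes, followed by CG6959 at 0.057. AstC was at -0.46, -0.32 and -0.50 on the arrays of Mlc1 and at -0.36 on replicate 4, which Mlc1 lacks.

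The actins had different nearest genes. For Act79B these were flw and Obp56d at 0.027 and 0.029, for Act87E CG15819 and Sap30 at 0.056 and 0.060, and for Act88F CG4553 and CG11550 at 0.071 and 0.091. For cib they were Tim9a and CG7884 at 0.054 and 0.061, and for betaTub60D CG3880 and atk at 0.029 and 0.038. With 3 or 4 arrays, and between 745 and 1223 genes to choose from, small differences of this kind are a description only.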

How the data were processed

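Per the labels and the design text, slides were scanned on a GenePix scanner, spots quantified in GenePix Pro 6.0, ratios normalized in Acuity 4.0 without dim spots, and spots filtered on saturation, flags, uniformity and signal over background before SAM 3.0. The authors deposited a log2 ratio per spot. The base follows from the ceiling of 16.61, held by 11 cells, which is log2 of 100000; these cells were dropped. Of 27648 spots 6472 had a value. Adjacent spots of 1 probe were averaged (3236 probes), and of these 1510 had 1 listed gene, 13 several and 1713 none. Old symbols were updated through gene IDs and an NCBI table (assembly Release 6 plus ISO1 MT), and 29 probes without a match kept theirs. Probes of a gene were averaged and each array was centred on its median over genes.

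Genes on at least 3 arrays were tested against 0 with limma 3.58.1 in R 4.3.3 (lmFit, eBayes, two-sided, Benjamini-Hochberg over 1444 genes). The number of arrays limits the precision. Each array pairs its own treated and untreated RNA. The fit was also run on simulated data with independent noise and planted effects larger than the means of the 7 genes. Those data had no dye swap and no array offsets, so they do not bear on the direction or the centring. The 7 genes, the lists and the direction were chosen with earlier results of these data known. Named list genes are the 3 highest and 3 lowest of each list, and the nearest genes are the 2 with the smallest root mean square difference over a gene's arrays.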

Additional observations from a re-analysis of the deposited data

How the results depend on the processing

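None of the 7 genes passed under the 16 alternatives planned, each a change of 1 choice, although the dye term and the filter on all 4 arrays left only Act87E, Act88F and Klp59C to test. Of their alternative values 95 kept their sign and 9 did not. The mean of each gene stayed as it was with genes on at least 2 arrays, ceiling values kept, robust eBayes, SAM and single probes. It also stayed with the dye term and the filter on all 4 arrays, for the genes left there. Signs kept in these settings are therefore no support. With 1 probe per gene, both paired spots required or centring over all probes, only the subtracted array medians changed for the 7. Each has 1 probe with a value, with both of its spots measured. Signs kept there are little support. Signs changed in the opposite direction of replicates 3 and 4 for Act79B (-0.13), Act87E (0.023), cib (-0.15), betaTub60D (0.15) and Klp59C (-0.11). They also changed when 1 array was left out: over such settings Act79B ranged from -0.015 to 0.17, Act88F from -0.25 to 0.035, cib from -0.12 to 0.24 and betaTub60D from -0.29 to 0.0099, while Act87E (-0.29 to -0.12), Mlc1 (-0.43 to -0.35) and Klp59C (0.45 to 0.65) kept theirs. The lowest adjusted p of Klp59C, 0.110, came with the dye term and the highest, 1.00, with arrays not centred. Over all genes the count that passed was 2. It was 0 in the opposite direction (122 at an unadjusted limma p under 0.05), 0 with genes on at least 2 arrays (101) and 0 for single probes (170). It was 1 for genes on all 4 arrays, 1 with 1 probe per gene, 1 with both paired spots required, 1 by one-class SAM and 9 with the dye term. Leaving out 1 array gave 0 to 18: 4 without replicate 1, 0 without replicate 2 (66 at an unadjusted p under 0.05), 18 without replicate 3 and 0 without replicate 4 (60). In the opposite direction the count was 0, and 237 with arrays not centred, where array medians below 0 enter each mean. With that combination, added after the data were seen, 1 of the 7 passed, against 0 with centring (0 of the 7 at an unadjusted p under 0.05): Act88F, at -0.54. Act79B (-0.40), cib (-0.42) and Klp59C (-0.45) then had the opposite sign to the likely direction. The cause of the other changes was not tested. The test is already paired, because each ratio sets the treated against the untreated RNA of the same set. No further pairing of arrays was possible, as there is 1 group of arrays.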

Other observations

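For a pair of genes on the same 3 arrays, the spread depended on the centring in opposite ways in the likely direction. Centring subtracts the same array medians from every gene. How often it raised or lowered the SD of other genes was not counted, so the contrast is not shown to be particular to this pair. The deposited ratios, as given, were -0.30, -0.35 and 0.16 for betaTub60D and -0.55, -0.81 and 0.19 for Mlc1 on replicates 1, 2 and 3. With replicate 3 turned in sign and no centring, betaTub60D was below 0 on 3 of 3 arrays, with a mean of -0.27 and an SD of 0.097. With the arrays also centred its mean was -0.14, its SD was 0.30 and replicate 2 stood at 0.18. Mlc1, turned and not centred, had a mean of -0.52 and an SD of 0.31, and with centring a mean of -0.38 and an SD of 0.091. With no array turned, the SD of betaTub60D was 0.28 without centring and 0.29 with it, and that of Mlc1 was 0.52 and 0.47, so the contrast was seen in the likely direction only. Neither gene passed in any of these 4 settings (limma, lowest adjusted p = 0.199 for Mlc1 and 0.563 for betaTub60D, both with no array turned and no centring).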
